A study of Mus musculus with 6 samples.

Results

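The subunits of the mitochondrial respiratory chain and ATP synthase that are encoded in the nucleus were described in RNA sequencing of mouse habenula, a small epithalamic brain region. Members were nuclear genes whose symbols begin with Ndufa, Ndufb, Ndufc, Ndufs, Ndufv, Uqcr, Cox4i, Cox5, Cox6, Cox7, Cox8 or Atp5, together with Sdha, Sdhb, Sdhc, Sdhd, Cyc1 and Cycs. Of 116 rows with such symbols, 14 named pseudogenes and 8 assembly factors were left out, which left 94 of the 55359 genes in the table. The rule used names only and no measured value. By complex, 43 members carry complex I names, 4 belong to complex II, 9 to complex III, 19 to complex IV and 18 to ATP synthase, and 1 is Cycs.

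The 6 libraries were labelled as 3 Tet2 conditional knockout (Tet2 cKO) and 3 wild-type (WT) libraries, all from C57BL/6 mice aged 2 months kept specific-pathogen-free. Total RNA had been extracted with Trizol from flash-frozen habenula. Tet2 is an enzyme that converts methylated cytosine in DNA to oxidised forms. The sources used here give neither the driver of the conditional deletion, nor the deleted exons, nor the animal behind each library, and p-values therefore reflect only how far these libraries spread, which may be technical.

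Complex I passes electrons from NADH to ubiquinone, complex II does so from succinate, complex III passes them to cytochrome c, and complex IV passes them to oxygen. Complexes I, III and IV pump protons, and ATP synthase uses the resulting gradient to make ATP. Most subunits are encoded in the nucleus and imported, while a small core of complexes I, III, IV and ATP synthase is encoded in mitochondrial DNA. Neurons meet most of their demand for ATP through this chain, and the nuclear genes are known targets of the transcription factors NRF1 and GABP (an ETS family factor) and of YY1.

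Promoter sequences are shown because many of the members' start sites share sequence features that the choice by name did not use. The part of these features in the library-to-library movement described further on was not tested. The windows come from RefSeq on build GRCm38.p6. For 71 members, 76 windows of 300 bases were found, each running from 250 bases before a gene's start to 50 bases after it. An NRF1 core (GCGC, any base, then TGCGC, both strands) was present in 18 of the 76 windows, or 23.7%, against 4.60% of all 32851 promoter windows. An ETS core (CCGGAAG, both strands) was present in 17, or 22.4%, against 8.86% of all windows. A YY1 core (AAGATGGC, both strands) was present in 10, or 13.2%, against 2.75%. The median number of CpG dinucleotides per window was 19 for the members and 7 for all windows, and the NRF1 and ETS cores both hold CpG. The 250 bases before the start are printed 5′ to 3′ for Cox6a1, Sdha and Atp5h, which hold these cores, and for Cox7a1 and Cox8b, muscle-type forms of complex IV subunits in which none of the 3 cores was found. Windows without any of the 3 cores were common, at 37 of 76 for the members (48.7%) and 85.3% of all windows, and they include those of the widely expressed Cox5a, Cox7b and Atp5b. Capitals mark the matches, including those read on the other strand (CTTCCGG for the ETS core).
Cox6a1, chr5:115348959-115349208, minus strand: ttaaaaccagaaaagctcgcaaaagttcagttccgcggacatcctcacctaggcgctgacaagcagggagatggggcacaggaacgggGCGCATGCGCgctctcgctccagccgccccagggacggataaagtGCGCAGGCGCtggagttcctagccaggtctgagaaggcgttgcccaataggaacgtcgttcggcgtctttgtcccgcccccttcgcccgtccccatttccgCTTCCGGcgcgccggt
Sdha, chr13:74350241-74350490, minus strand: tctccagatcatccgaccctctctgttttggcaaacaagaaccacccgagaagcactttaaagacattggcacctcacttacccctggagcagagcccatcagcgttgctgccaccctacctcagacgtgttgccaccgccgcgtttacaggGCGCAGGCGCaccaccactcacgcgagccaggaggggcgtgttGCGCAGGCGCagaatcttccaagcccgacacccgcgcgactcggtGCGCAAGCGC
Atp5h, chr11:115419920-115420169, minus strand: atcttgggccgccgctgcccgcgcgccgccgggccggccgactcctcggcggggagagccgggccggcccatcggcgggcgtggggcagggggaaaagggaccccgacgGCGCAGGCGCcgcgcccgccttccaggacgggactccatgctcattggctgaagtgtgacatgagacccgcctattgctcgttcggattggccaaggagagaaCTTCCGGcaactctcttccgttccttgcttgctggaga
Cox7a1, chr7:30183921-30184170, plus strand: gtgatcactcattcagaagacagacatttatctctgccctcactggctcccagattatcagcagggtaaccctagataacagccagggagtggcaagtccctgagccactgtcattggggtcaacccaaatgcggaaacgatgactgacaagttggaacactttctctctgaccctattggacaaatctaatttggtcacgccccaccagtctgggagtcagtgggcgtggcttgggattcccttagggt
Cox8b, chr7:140900447-140900696, minus strand: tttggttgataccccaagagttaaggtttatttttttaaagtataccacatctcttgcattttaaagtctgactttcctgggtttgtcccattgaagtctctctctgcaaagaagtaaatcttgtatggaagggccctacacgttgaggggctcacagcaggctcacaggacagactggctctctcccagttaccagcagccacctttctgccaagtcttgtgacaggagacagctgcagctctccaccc
In the first 3 sequences the NRF1 and ETS matches do not overlap each other. Sdha held 3 NRF1 cores, Cox6a1 held 2 with an ETS core near the start, and Atp5h held 1 of each. The printed stretches of Cox6a1, Sdha and Atp5h hold 26, 21 and 29 CpG, against 4 in Cox7a1 and 1 in Cox8b. A match is a description of the letters and not a mapped binding site. Windows were not used here for, among others, Ndufa11b, Ndufa2, Ndufa4l2, Ndufb11b, Ndufb4c, Ndufb9, Ndufs1, Ndufs6b, Sdhc, Cyc1, Uqcrb, Uqcrc2, Uqcrq, Cox4i1, Cox4i2, Cox6a2, Cox6c, Cox6c2, Cox8c, Atp5a1 and Atp5mpl.

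The 6 libraries held 16089676 to 17917987 counts, and the members took 0.999% to 1.19% of them. Tet2 itself had 4.47, 4.02 and 3.96 FPKM (the count divided by exonic gene size and by library total) in libraries labelled Tet2 cKO and 3.45, 3.46 and 3.71 FPKM in WT libraries. All 3 values under the Tet2 cKO label lay above the 3 WT values, as for 3.34% of all tested genes. The log2 difference was 0.22 (unadjusted p = 0.0174 in edgeR's quasi-likelihood test, not passing after adjustment). A count over the whole gene does not check a deletion of some exons, so groups are named here by their labels. Markers of habenula neurons were present in every library, such as the receptor gene Gpr151 with 71.7, 50.3 and 66.6 FPKM in cKO 1 to 3 and 60.2, 81.0 and 37.5 FPKM in WT 1 to 3. WT 3 stood apart with the lowest level of 8 of the 11 such markers. All 12 tested choroid plexus markers and all 8 tested ependymal markers had lower fitted levels under the Tet2 cKO label, with median log2 differences of -1.14 and -0.45. Their part in the results on the members was not tested, and in bulk tissue fewer cells of a type cannot be told apart from less RNA per cell.

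No member passed the test between the groups. Among the 87 members with a mean of at least 1 FPKM, 0 passed an adjusted p of 0.05 in edgeR's quasi-likelihood test with Benjamini-Hochberg adjustment over 14539 genes, of which 0% passed. At an unadjusted p under 0.05 the count was also 0 of 87 members, against 2.57% of all tested genes, and the smallest p was 0.0553, for Cox6a2. DESeq2 likewise called 0 members, and 4 of all tested genes. The 3 Tet2 cKO values lay entirely above or below the 3 WT values for 1 of 87 members, or 1.15%, against 6.8% of all tested genes. The fitted log2 difference was within 0.1 of 0 for 72 members, or 82.8%, against 65.7% of all tested genes. This comparison was not matched for level. It does not mean steadier libraries, since the members' median log2 range over the 6 libraries was 0.41, against 0.36 for all tested genes.

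The members' log2 differences (Tet2 cKO minus WT) had a median of 0.003, beside -0.002 over all tested genes, and ran from -1.26 for Cox8b to 0.23 for Ndufb4. They were above 0 for 45 of 87 members, or 51.7%, against 49.1% of all tested genes. With upper-quartile scaling 37 members were above 0, and with DESeq2's size factors in edgeR 48, so the balance of signs follows the scaling. The 95% interval lay within a 1.5-fold difference in either direction for 79 members and within a 2-fold difference for 85. The exceptions to the wider bound were Cox8b and Ndufb4c, both with few counts.

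**Figure D1:**
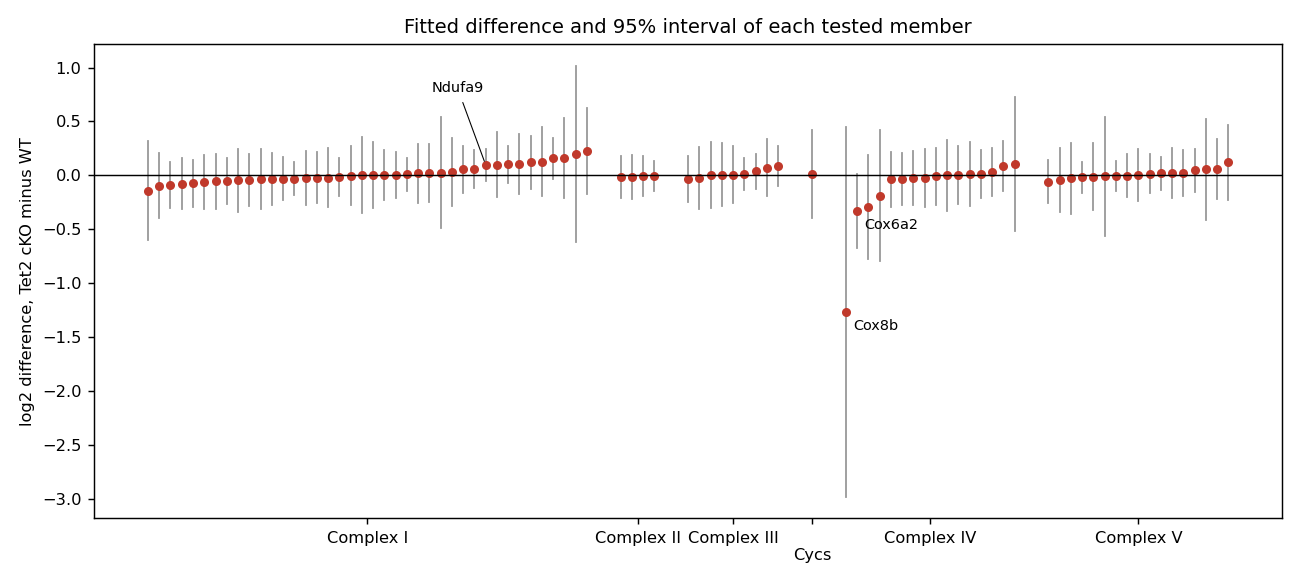
Fitted log2 difference (Tet2 cKO minus WT, vertical axis) of each of the 87 tested members, sorted within its complex, with bars for the 95% interval derived from edgeR's F statistic. Of 87 points, 72 lie within 0.1 of 0. Cox8b at -1.26 is the farthest and has the widest interval, and Cox6a2 stands at -0.33.

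The summed level of each complex overlapped between the groups. The 94 members summed to 6852, 5865 and 6194 FPKM in cKO 1 to 3 and to 6032, 5644 and 7071 FPKM in WT 1 to 3. The group means of 6304 ± 503 FPKM under the Tet2 cKO label and 6249 ± 738 FPKM in WT (SD, n = 3 each) had a ratio of 1.01. Complex II varied least, with 247, 240 and 241 FPKM in Tet2 cKO and 242, 236 and 249 FPKM in WT. Its highest library exceeded its lowest by a factor of 1.06, while that factor was 1.29 for complexes I and IV, 1.25 for complex III and 1.18 for ATP synthase.

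Complex I, the NADH dehydrogenase, had 40 tested members, 21 with a log2 difference above 0 and 19 below, and a median of 0.003. The 7 core subunits, which carry the flavin and iron-sulfur clusters that move electrons, had a median of 53.2 FPKM, and Ndufs1 was the lowest at 21.9 FPKM. Ndufv1, the flavin-bearing subunit, had 61.9, 59.4 and 60.1 FPKM in Tet2 cKO and 58.0, 57.3 and 63.8 FPKM in WT. Its groups overlapped, and all 6 libraries lay close together. Ndufv2, an iron-sulfur subunit of the same module, had 63.1, 56.0 and 59.0 FPKM in Tet2 cKO and 60.4, 56.5 and 71.4 FPKM in WT. WT 3 alone was high, and the log2 difference was -0.09 (SE 0.0945, adjusted p = 0.9999 in edgeR's quasi-likelihood test). This was the smallest p among complex I members below 0.

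Among the 30 accessory subunits of complex I, which surround and stabilise the core, the highest was Ndufb3, with 132, 106 and 102 FPKM in Tet2 cKO and 110, 102 and 134 FPKM in WT. The high and low libraries were spread over both groups. Ndufa9, a subunit that binds a nucleotide at the junction of the matrix and membrane arms, was the single member without overlap. It had 57.0, 54.7 and 53.6 FPKM in Tet2 cKO and 51.6, 49.2 and 52.6 FPKM in WT. All 3 Tet2 cKO libraries lay above all 3 WT libraries, by a narrow margin, and non-overlap in the higher direction was seen for 3.34% of all tested genes. Its log2 difference was 0.10 (SE 0.067, adjusted p = 0.9999 in edgeR's quasi-likelihood test). Ndufa9 lies at chr6:126821721-126849136 on the minus strand of GRCm38, where an exon of 1700018A23Rik overlaps it on the opposite strand.

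Ndufb2, another accessory subunit, had the smallest p of complex I. It had 12.2, 10.8 and 12.5 FPKM in Tet2 cKO and 10.3, 9.91 and 11.3 FPKM in WT. The groups overlapped through cKO 2 and WT 3, and the log2 difference was 0.16 (SE 0.0851, adjusted p = 0.9999 in edgeR's quasi-likelihood test). Ndufa12, an accessory subunit that replaces an assembly factor late in assembly, was uneven between libraries, with 1046, 603 and 1091 counts in Tet2 cKO and 1157, 781 and 953 counts in WT. Its named pseudogene row had 374, 444 and 330 counts in Tet2 cKO and 319, 301 and 528 counts in WT. Sharing of reads between the pair was not tested. The sum of both rows, scaled by the library total, gave a log2 ratio of -0.11 and still overlapped.

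Ndufa4 carries a complex I name and is now placed in complex IV. It had 142, 111 and 121 FPKM in Tet2 cKO and 123, 111 and 143 FPKM in WT, the highest of the 40. Its paralogue Ndufa4l2, known as a hypoxia-inducible gene, had 2.62, 2.14 and 3.17 FPKM in Tet2 cKO and 2.69, 2.89 and 2.16 FPKM in WT. Ndufa4l2 took 2.08% ± 0.406 of the FPKM of the pair in Tet2 cKO and 2.05% ± 0.531 in WT (SD, n = 3 each). Both genes overlapped between the groups.

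Complex II, succinate dehydrogenase, is the complex with no subunit from mitochondrial DNA. Sdha, its flavin-bearing catalytic subunit, had 107, 111 and 112 FPKM in Tet2 cKO and 112, 110 and 106 FPKM in WT. This was the narrowest spread of any tested member, with a range of 0.09 on the log2 scale over the 6 libraries. Sdhb, the iron-sulfur subunit, had 43.5, 39.4 and 40.4 FPKM in Tet2 cKO and 37.0, 40.6 and 46.2 FPKM in WT. The WT libraries enclosed the Tet2 cKO libraries.

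The membrane anchors of complex II had values close to each other in the groups. Sdhc had 33.8, 28.6 and 29.9 FPKM in Tet2 cKO and 28.8, 30.1 and 33.8 FPKM in WT. Sdhd had 63.1, 60.9 and 58.6 FPKM in Tet2 cKO and 64.2, 55.2 and 63.0 FPKM in WT. The groups overlapped for both. The 4 log2 differences lay between -0.016 and -0.003, and the smallest of their p-values in edgeR's quasi-likelihood test was 0.863, with all adjusted p at 0.9999. The signs of Sdha and Sdhd turned under other scalings or units. The 95% interval of Sdha ran from -0.14 to 0.14, so larger differences were outside it.

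Complex III had 9 tested members, 7 above 0 and 2 below, with a median log2 difference of 0.008. Its highest members were 2 small subunits. Uqcr10 had 170, 142 and 154 FPKM in Tet2 cKO and 144, 124 and 172 FPKM in WT. Uqcrh, the hinge protein that binds cytochrome c1, had 143, 114 and 119 FPKM in Tet2 cKO and 114, 106 and 152 FPKM in WT. In both genes cKO 1 and WT 3 were high.

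Of the catalytic subunits of complex III, Uqcrfs1, the Rieske iron-sulfur protein, had 106, 93.2 and 92.0 FPKM in Tet2 cKO and 85.1, 89.0 and 97.7 FPKM in WT. WT 3 lay inside the Tet2 cKO range, and the log2 difference was 0.09 (SE 0.0817, adjusted p = 0.9999 in edgeR's quasi-likelihood test), or 0.03 without cKO 1. Cyc1, which encodes cytochrome c1, had 50.8, 43.9 and 53.3 FPKM in Tet2 cKO and 45.9, 48.9 and 55.6 FPKM in WT. Its log2 difference was -0.03 (SE 0.0957), with overlap in both directions. Cycs, the mobile carrier cytochrome c, had 10, 8.02 and 6.74 FPKM in Tet2 cKO and 6.15, 8.34 and 9.87 FPKM in WT. It was the most uneven of these and the log2 difference was 0.01 (SE 0.181).

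Complex IV, cytochrome c oxidase, had the highest members. Cox8a had 389, 322 and 321 FPKM in Tet2 cKO and 320, 311 and 375 FPKM in WT. Cox4i1, a subunit involved in the regulation of the enzyme by ATP, had 321, 272 and 289 FPKM in Tet2 cKO and 273, 254 and 353 FPKM in WT. The groups overlapped in both. Cox6b1, which faces the intermembrane space, had 275, 232 and 252 FPKM in Tet2 cKO and 240, 204 and 267 FPKM in WT, with a log2 difference of 0.08 (SE 0.104) that had the smallest p of complex IV above 0, at 0.441 (adjusted p = 0.9999 in edgeR's quasi-likelihood test). The 10 widely expressed subunits had log2 differences between -0.04 and 0.08, with a median of 0.003. Cox7a2l, known for its part in joining complexes III and IV, had 83.9, 72.4 and 74.3 FPKM in Tet2 cKO and 67.7, 71.6 and 93.5 FPKM in WT, and also overlapped.

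Of the 5 tested tissue-restricted forms of complex IV subunits, 4 had a log2 difference below 0. Cox8b, Cox6a2 and Cox6b2 were the 3 members farthest from 0, followed by Ndufb4 and Ndufb4c of complex I. Cox6a2, known as the heart and skeletal muscle form of subunit 6a and in mouse brain from fast-spiking interneurons, had 342 to 580 counts per library, while each of the other 4 had under 100. It had 41.1, 30.1 and 28.1 FPKM in Tet2 cKO and 39.0, 37.1 and 48.1 FPKM in WT. cKO 1 lay inside the WT range, while cKO 2 and cKO 3 lay below it. The log2 difference was -0.33 (95% interval -0.68 to 0.01, adjusted p = 0.9999 in edgeR's quasi-likelihood test).

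The share of subunit 6a that came from Cox6a2 did not overlap between the groups. Cox6a2 made up 12.2%, 11.4% and 10.6% of the summed FPKM of Cox6a1 and Cox6a2 in Tet2 cKO, against 14.2%, 13.1% and 13.9% in WT. The group means of 11.4% ± 0.812 in Tet2 cKO and 13.7% ± 0.568 in WT (SD, n = 3 each) differed by -2.31 percentage points. With 3 libraries against 3, the p of 0.1 from an exact permutation test (two-sided) is the lowest that can be reached. Subunit 6a was 1 of 8 paralogue sets compared, and the groups overlapped in the other sets. With counts per mRNA length in place of FPKM the difference was -1.97 points. Leaving out each library in turn gave -2.71 to -1.90 points. Cox6a2 lies at chr7:128205435-128206387 on the minus strand of GRCm38 and overlaps an exon of Itgad on the opposite strand, so the origin of some of its reads is uncertain.

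Markers of cells that could carry Cox6a2 are given beside it. The 12 markers of GABAergic neurons, of which 7 were tested and 0 were called, summed to 75.0, 99.6 and 77.7 FPKM in Tet2 cKO and 75.8, 83.1 and 102 FPKM in WT. Pvalb, which marks fast-spiking interneurons, had 21.3, 20.6 and 17.3 FPKM in Tet2 cKO and 17.5, 19.7 and 24.9 FPKM in WT. Of 14 striated muscle markers 4 were tested, the list summed to 5.61 to 6.86 FPKM over the 6 libraries, and the muscle creatine kinase gene Ckm was at most 0.14 FPKM. The part of GABAergic neurons in the Cox6a2 values was not tested.

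The remaining restricted forms had lower counts. Cox8b, the muscle form of subunit 8, had 3, 3 and 6 counts in Tet2 cKO and 19, 7 and 2 counts in WT. WT 1 was high and WT 3 was the lowest of all 6, so the groups overlapped. The log2 difference of -1.26 had an SE of 0.767 (adjusted p = 0.9999 in edgeR's quasi-likelihood test), and without WT 1 it was -0.25. Choroid plexus markers, which also peaked in WT 1, summed to 919, 229 and 346 FPKM in Tet2 cKO and 1592, 950 and 511 FPKM in WT, and their part in the Cox8b counts was not tested.

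Cox6b2, best known from testis, had 65, 64 and 59 counts in Tet2 cKO and 94, 66 and 60 counts in WT, with a log2 difference of -0.29 (SE 0.216). Cox4i2, a form of subunit 4 known from lung and from pericytes, had 26, 30 and 22 counts in Tet2 cKO and 26, 24 and 35 counts in WT, with a log2 difference of -0.19 (SE 0.270). Cox7a1, the heart and muscle form of subunit 7a, had 35, 39 and 25 counts in Tet2 cKO and 32, 22 and 34 counts in WT, with a log2 difference of 0.11 (SE 0.277). All 3 genes overlapped between the groups. Without WT 1 the log2 difference of Cox6b2 was -0.09, and without WT 3 that of Cox4i2 was -0.03. Of its subunit's FPKM, Cox4i2 took 0.632% in Tet2 cKO and 0.712% in WT, Cox6b2 took 1.25% in Tet2 cKO and 1.64% in WT, and Cox7a1 took 2.00% in Tet2 cKO and 1.85% in WT of a set that includes both Cox7a2 and Cox7a2l. In the pair for subunit 7b, Cox7b2 took 0.151% in Tet2 cKO and 0.447% in WT. Mural cell markers, among which pericyte genes count, summed to 84.9 to 98.8 FPKM over the 6 libraries.

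**Figure D2:**
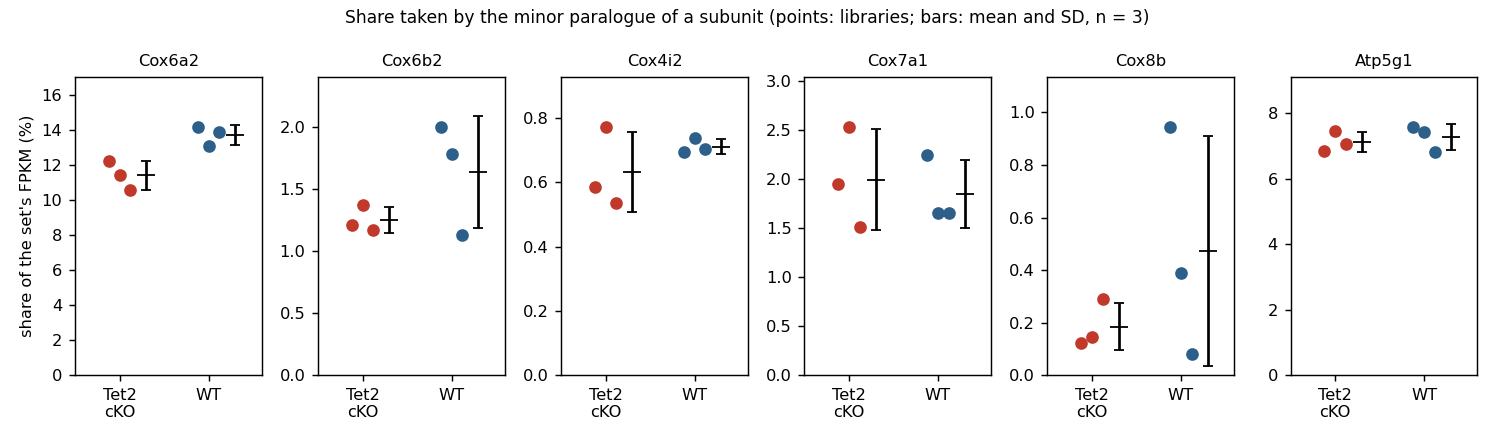
Share of a subunit's summed FPKM (%, vertical axes starting at 0) taken by a minor paralogue in each Tet2 cKO and WT library, with bars for the mean and SD (n = 3 each). The 3 Tet2 cKO libraries lie below the 3 WT libraries for Cox6a2, at 10.6% to 12.2% against 13.1% to 14.2%, and the groups overlap in the other panels.

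ATP synthase had 17 tested members, 9 above 0 and 8 below, with a median log2 difference of 0.005. The catalytic head was led by the 2 subunits that form its hexamer. Atp5a1 had 254, 261 and 274 FPKM in Tet2 cKO and 259, 267 and 261 FPKM in WT. Atp5b, which holds the catalytic sites, had 260, 258 and 255 FPKM in Tet2 cKO and 251, 255 and 271 FPKM in WT. Both were among the steadiest members, with ranges of 0.12 and 0.11 on the log2 scale over the 6 libraries.

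The small subunits of the central stalk were more uneven. Atp5e had 39.2, 31.9 and 39.1 FPKM in Tet2 cKO and 31.4, 26.6 and 42.4 FPKM in WT, and its log2 difference was 0.12 (SE 0.155, adjusted p = 0.9999 in edgeR's quasi-likelihood test). Atp5d had 81.7, 71.3 and 78.3 FPKM in Tet2 cKO and 77.2, 73.1 and 89.0 FPKM in WT, and its log2 difference was -0.06 (SE 0.0888). These were the smallest p-values of ATP synthase above and below 0, and both genes overlapped between the groups.

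Subunit c, which forms the rotating ring in the membrane, is encoded by 3 genes with distinct import sequences and the same mature protein. Atp5g3 took 91.3%, 90.8% and 91.7% of their summed FPKM in Tet2 cKO and 91.1%, 90.3% and 91.7% in WT. Atp5g1 took 7.13% ± 0.312 in Tet2 cKO and 7.28% ± 0.407 in WT, and Atp5g2 took 1.61% ± 0.313 in Tet2 cKO and 1.68% ± 0.479 in WT (SD, n = 3 each). The composition of the ring's messages overlapped between the groups.

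Levels within a complex differed far more between members than between groups. In FPKM the highest tested member exceeded the lowest by 3.56-fold in complex II and 3.07-fold in complex III. The fold was 47.9 among members with complex I names, 137 in ATP synthase and 316 in complex IV. Among complex I names the ends were Ndufa4 and its paralogue Ndufa4l2. The accessory and core subunits of complex I ran from 6.47 to 114 FPKM. FPKM divides by the size of all annotated exons of a gene, which for 31 of the 85 tested members with a GENCODE M21 mRNA length was over 2 times the median length of the gene's principal coding mRNAs. Per mRNA length, these folds were 4.94 for complex II, 4.003 for complex III, 106 for complex I names, 104 for ATP synthase and 561 for complex IV. Atp5l, a membrane subunit at the interface of ATP synthase dimers, shows the effect, with a mean of 4.67 FPKM and of 55.2 on the same scale per kilobase of mRNA. Per mRNA length, the highest were Cox4i1 at 603 and Atp5b at 571 on that scale, while Cycs stood at 8.92. The order of members within a complex therefore depends on the length used, while the difference of a single member between the groups does not. Atp5l and Cycs also have 3 and 2 rows of named pseudogenes. Loss of reads to near-identical copies could lower such levels under either length, and was not tested.

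**Figure D3:**
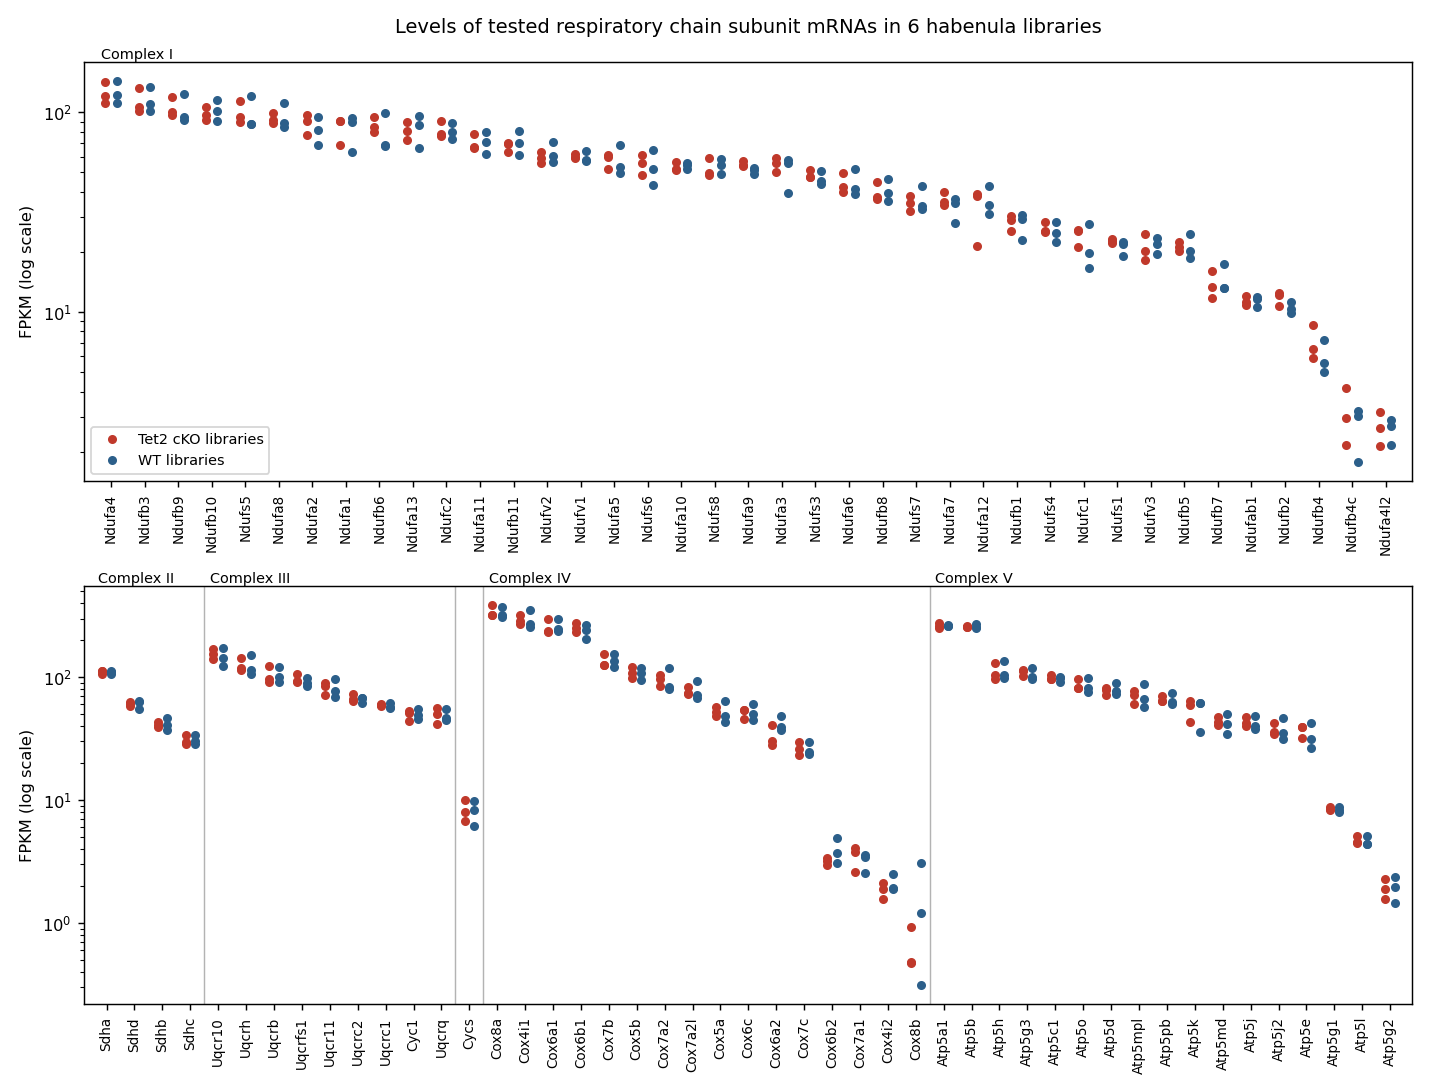
FPKM (log scale) of tested members in the 3 Tet2 cKO libraries (left of each pair) and 3 WT libraries (right), sorted by mean level within each complex. The groups overlap for every member drawn except Ndufa9, and levels run from 1.08 FPKM for Cox8b to 340 FPKM for Cox8a.

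The 7 members under 1 FPKM had few counts or none. Cox7b2 had 3, 2 and 1 counts in Tet2 cKO and 10, 1 and 7 counts in WT. Cox6c2 had 1, 2 and 2 counts in Tet2 cKO and 0, 1 and 1 counts in WT. Ndufs6b had 0 counts in every Tet2 cKO library and 0, 4 and 1 counts in WT, and Ndufa11b had 0, 2 and 0 counts in Tet2 cKO and 0, 1 and 0 counts in WT. Ndufb11b, Cox8c and an additional Atp5o row were at 0 in all 6 libraries, and no difference was detectable for any of these at this depth.

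What the members shared was their position in each library. In every library the level of each gene was set against its mean over the 6 libraries on the log2 scale. The median over the 87 members was 0.13, -0.09 and -0.02 in cKO 1 to 3 and -0.04, -0.14 and 0.19 in WT 1 to 3. Over all tested genes the same medians were within 0.01 of 0, which the scaling of library sizes largely sets in advance. WT 3 held the highest value of 59 members, or 67.8%, against 27.1% of all tested genes, and WT 2 held the lowest of 50 members, or 57.5%, against 16.1%. The extremes were both WT libraries, so this spread lies within a group.

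**Figure D4:**
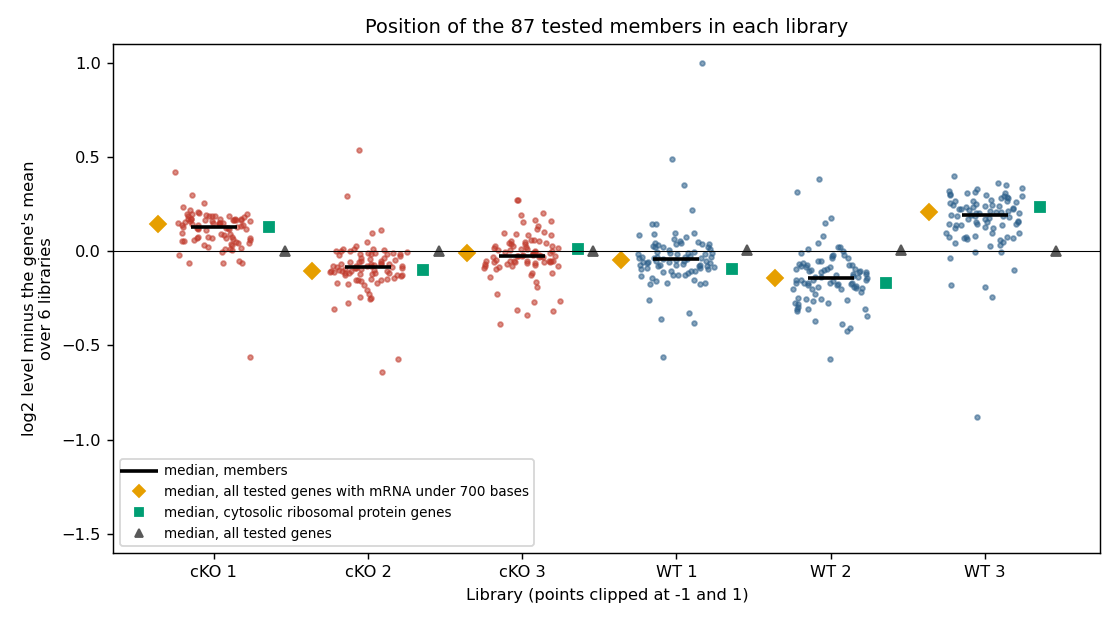
Log2 level minus the gene's own mean over 6 libraries (vertical axis) for each tested member in each Tet2 cKO and WT library, with medians for the members, for all genes with mRNA under 700 bases (members included), for cytosolic ribosomal protein genes and for all tested genes. The members' medians are highest in WT 3 at 0.19 and lowest in WT 2 at -0.14, and the short genes and ribosomal protein genes stand close to them.

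Other short messages also had their highest medians in WT 3 and cKO 1 and their lowest in WT 2. The members' mRNAs had a median length of 782 bases, against 2975 bases over tested genes with a coding mRNA, and 35 of 85 were under 700 bases. With the members left out, the 256 tested genes under 700 bases had medians of 0.13, -0.10 and -0.01 in cKO 1 to 3 and -0.05, -0.13 and 0.20 in WT 1 to 3. The 87 cytosolic ribosomal protein genes had medians of 0.13, -0.10 and 0.01 in cKO 1 to 3 and -0.09, -0.17 and 0.24 in WT 1 to 3. The 23 members of 1200 bases or more had medians of 0.06, -0.01 and -0.03 in cKO 1 to 3 and -0.03, -0.07 and 0.08 in WT 1 to 3, a smaller spread than that of the short members. The 15 ribosomal protein genes of that length had medians of 0.10, -0.06 and -0.02 in cKO 1 to 3 and -0.10, -0.07 and 0.19 in WT 1 to 3, so they kept much of the spread. The 11100 other genes of that length had medians within 0.02 of 0 in every library. They are most of the tested genes, and the scaling of library sizes largely sets such medians near 0 in advance. RNA quality and size selection were not tested.

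**Figure D5:**
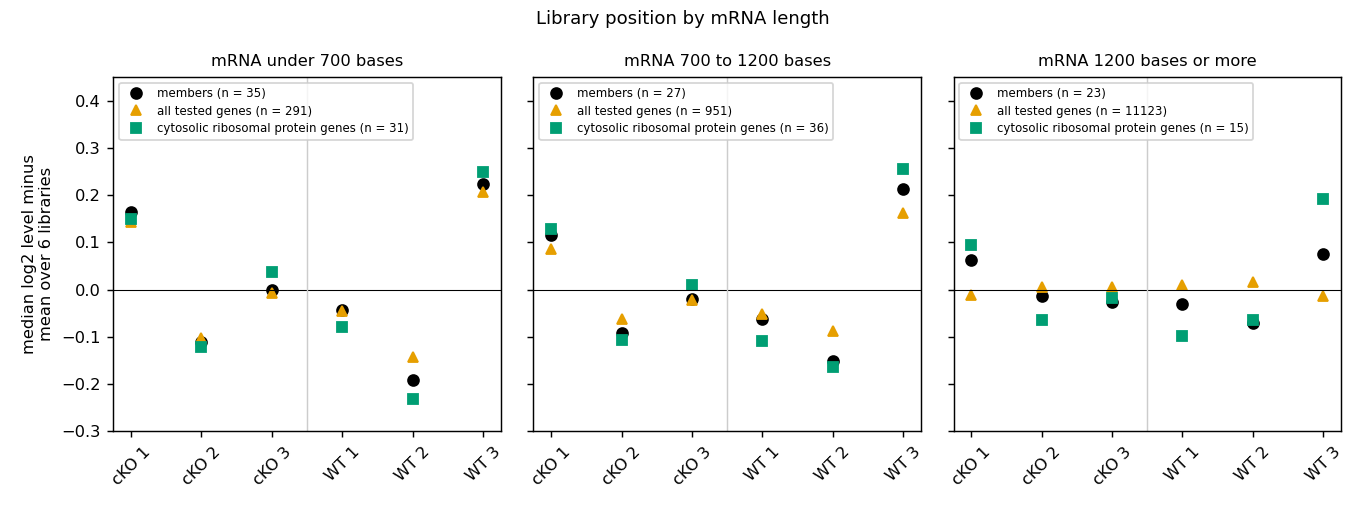
Median log2 level minus the gene's mean over 6 libraries (vertical axis) in each Tet2 cKO and WT library, by mRNA length, for the members, all tested genes (members included) and cytosolic ribosomal protein genes. Under 700 bases the members in WT 3 stand at 0.22 and all genes at 0.21, and at 1200 bases or more the members in WT 3 stand at 0.08 and all genes at -0.01. Genes of 1200 bases or more are most of the tested genes, and the scaling largely sets their medians near 0.

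The spread differed by role. In WT 3 the median was 0.21 for the 30 accessory subunits of complex I and 0.14 for its 7 core subunits, 0.10 for complex II, 0.21 for the 10 widely expressed subunits of complex IV and 0.08 for the 5 subunits of the ATP synthase head and central stalk. In WT 2 the median was -0.18 for the accessory and -0.08 for the core subunits of complex I, -0.03 for complex II, -0.19 for the widely expressed subunits of complex IV and -0.10 for the ATP synthase head and central stalk. These are descriptions without a test, and the roles also differ in mRNA length. For members under 700, at 700 to 1200 and at 1200 bases or more, the medians in WT 3 were 0.22, 0.21 and 0.08. In WT 2 they were -0.19, -0.15 and -0.07. The parts of role and length were not told apart. The sign of the members' group difference rests on these libraries. Without WT 3, 80 of 87 members were above 0, with a median log2 difference of 0.11. Without WT 2, 15 were above 0, with a median of -0.07. Without cKO 1, 26 were above 0, with a median of -0.06, and without cKO 2, 67 were above 0, with a median of 0.05. No member was called in any of these fits.

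The subunits encoded in mitochondrial DNA were also highest in WT 3, while their lowest library was cKO 3 and not WT 2. Their median levels against the 6-library mean were -0.0002, -0.02 and -0.25 in cKO 1 to 3 and 0.06, -0.02 and 0.21 in WT 1 to 3. All 13 had log2 differences below 0, with a median of -0.18, while 49.1% of all tested genes were above 0. Of the 13, 0 were called by edgeR's quasi-likelihood test after adjustment. Mitochondrially encoded genes took 6.44%, 6.10% and 5.43% of counts in Tet2 cKO and 6.33%, 6.25% and 7.66% in WT. The 13 share this part of each library, so they are not 13 separate observations. The median log2 difference was -0.09 without WT 3 and -0.10 without cKO 3. An unadjusted p under 0.05 in the same test was reached by mt-Nd5 and mt-Nd2, and by 2.57% of all tested genes. The first of these, mt-Nd5, had 1756, 2184 and 1896 FPKM in Tet2 cKO and 2274, 2291 and 2348 FPKM in WT, without overlap. mt-Nd2 had 4600, 4675 and 4027 FPKM in Tet2 cKO and 4998, 4776 and 5565 FPKM in WT, also without overlap. Non-overlap in the lower direction was seen for 3.46% of all tested genes. The 13 summed to 44470, 42253 and 37364 FPKM in Tet2 cKO and 44898, 44042 and 51095 FPKM in WT, and these sums overlapped. The difference between nuclear and mitochondrial subunits was not tested.

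Other genes of the pathway were described from lists, and 0 genes of any of them passed in either direction. Of 17 complex I assembly factors 9 were above 0, with a median log2 difference of 0.005, and of 31 tested assembly factors of complexes II to V 15 were above 0, with a median of -0.008. Of 18 genes of the tricarboxylic acid cycle 9 were above 0, with a median of -0.005, and of 17 rows of glycolytic genes 8 were above 0. Of 16 regulators of mitochondrial biogenesis 8 were above 0, with a median of 0.01. Among these Gabpa, which encodes the DNA-binding subunit of GABP, had 6.19, 5.81 and 5.78 FPKM in Tet2 cKO and 6.55, 6.67 and 7.18 FPKM in WT. The groups did not overlap, as for 3.46% of all tested genes in the lower direction. The log2 difference of Gabpa was -0.21 (SE 0.0808, adjusted p = 0.9999 in edgeR's quasi-likelihood test). Exons of Gabpa overlap the member Atp5j on the opposite strand. Atp5j had 47.3, 40.01 and 42.1 FPKM in Tet2 cKO and 40.3, 37.9 and 48.3 FPKM in WT, with overlap. Nrf1 had 1.71, 1.59 and 1.80 FPKM in Tet2 cKO and 1.55, 1.72 and 1.97 FPKM in WT. Yy1 had 12.9, 13.3 and 13.5 FPKM in Tet2 cKO and 13.5, 13.2 and 13.2 FPKM in WT. Both overlapped between the groups.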

How the data were processed

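The deposited table holds counts per gene for 6 libraries, which are whole numbers, and FPKM values made by the authors. Recomputing FPKM from the counts, the exonic gene sizes in the table and the library totals gave the deposited values within 0.005. The authors' tools, per the submitters' processing notes, were HISAT2 2.0.1, SAMtools 0.1.19, cutadapt 1.9.1 and FastQC 0.10.1, with build mm10. The sources used here do not give the counter, the annotation or whether strand was used, so overlapping genes on opposite strands may share reads. Of the 94 members, 29 have such an exon overlap in GENCODE M21, and near-identical copies can also share reads. Positions are those of GENCODE M21 on GRCm38, joined by gene identifier.

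Counts were tested with edgeR 4.0.16 (R 4.3.3; quasi-likelihood test, two-sided, TMM scaling, Tet2 cKO minus WT without covariates) over the 14539 genes that averaged 1 FPKM or more. Benjamini-Hochberg adjustment ran over all of them, with a threshold of 0.05. The common biological coefficient of variation was 10.4%. Alternatives were other scalings, DESeq2 1.42.0, limma 3.58.1 on log2(FPKM + 1) and log2(FPKM + 0.1), other filters, a replicate block and leaving out each library. The edgeR step was also run on simulated data, with changes set in randomly chosen genes. Those data lacked the members' shared movement between libraries, so they do not show which differences could be detected among the members. The level of a library relative to the 6-library mean used log2 counts scaled by TMM library sizes.

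The text names, for each complex, the 2 members with the highest mean FPKM, the smallest p in each direction, members without overlap at an unadjusted p under 0.05 (there were 0), all paralogue sets, complex II, Cyc1 and Cycs, and up to 2 genes of another list. Ndufa9, Ndufa12, Ndufv1, Atp5l and Atp5j, and Nrf1 and Yy1, were added after their values were seen, as were Ndufb4, Ndufb4c, the length bins and the ribosomal protein list. Members and lists were chosen with earlier results of these data known. The values of 1 member are not reported here, and it is counted in the totals.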

Additional observations from a re-analysis of the deposited data

How the results depend on the processing

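No member was called under any alternative run, which were 2 other scalings, DESeq2, limma with 2 pseudocounts, 2 other filters, removal of mitochondrially encoded genes, the replicate block and leaving out each library. Without a filter 49 of 31689 genes were called, and with DESeq2 4 of 14539, against 0. Sdha, at -0.003, turned sign with DESeq2's size factors in edgeR (0.0006955), DESeq2 (0.000703), limma on log2(FPKM + 1) (0.005222), limma on log2(FPKM + 0.1) (0.005266) and no filter (0.002134). Sdhd turned sign in limma with a pseudocount of 1 (0.005273) and of 0.1 (0.005389). The causes were not tested. The median of the biogenesis regulators was 0.055 in limma on log2(FPKM + 0.1).

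Leaving out each library in turn was followed for 18 members and turned the sign of 11 of them. Their log2 differences ran from -0.165 to 0.023 for Ndufv2, -0.090 to 0.060 for Cyc1, -0.018 to 0.186 for Cox6b1, -0.032 to 0.279 for Cox7a1, -0.023 to 0.339 for Atp5e, -0.122 to 0.039 for Atp5d, -0.014 to 0.021 for Sdha, -0.086 to 0.085 for Sdhb, -0.084 to 0.065 for Sdhc, -0.076 to 0.037 for Sdhd and -0.150 to 0.192 for Cycs. The other 7 kept their sign, which were Cox6a2 (-0.51 to -0.20), Cox8b (-1.75 to -0.25), Cox6b2 (-0.43 to -0.09), Cox4i2 (-0.29 to -0.03), Ndufa9 (0.067 to 0.130), Ndufb2 (0.11 to 0.22) and Uqcrfs1 (0.03 to 0.16). List medians ran from -0.23 to -0.09 for mitochondrially encoded subunits, -0.036 to 0.060 for assembly factors of complexes II to V, -0.027 to 0.052 for biogenesis regulators and -0.029 to 0.036 for glycolysis.

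The deviations of same-numbered libraries from their group means correlated at -0.041, 0.176 and -0.102. Those of differently numbered libraries correlated at -0.196 to 0.193. With 3 libraries per group these values cannot decide whether replicate numbers pair the samples. With the replicate block 0 genes were called and 346 had an unadjusted p under 0.05, against 374, and 49 of 87 members were above 0, with a median of 0.007. With 3 libraries per group the median SE of the members was 0.112 on the log2 scale, which limits the differences that could be seen.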
